A study of Mus musculus with 20 samples.

Results

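The 10 genes Foxj1, Dnah5, Dnah9, Dnah11, Hydin, Spag17, Spef2, Ccdc39, Rsph1 and Cfap43 encode parts of motile cilia, or switch such genes on, and were put forward as genes of ependymal cells. They were found by symbol, 10 of 10, among the 43629 genes of a count table of RNA from sorted mouse spinal cord nuclei. Nuclei were separated on NeuN, a nuclear protein of neurons, into a NeuN-positive and a NeuN-negative fraction. The mice were either healthy or had experimental autoimmune encephalomyelitis (EAE), an inflammatory disease of the central nervous system, on day 15 after active immunization. This gave 4 groups of 5 libraries each: healthy NeuN-negative, EAE NeuN-negative, healthy NeuN-positive and EAE NeuN-positive. The sources used here do not give strain, age, sex or the immunizing antigen, nor the number of mice behind a library, so p-values measure the spread between libraries, which may be technical.

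A motile cilium is built on an axoneme of microtubule doublets around a central pair. Outer and inner dynein arms slide the doublets against each other, radial spokes link them to the central pair, and ruler and tether proteins set where the arms sit. FOXJ1 is the transcription factor that switches on this set of genes, together with RFX factors, which bind a palindromic motif called the X-box. In the spinal cord, motile cilia are known from the ependymal cells that line the central canal and move the cerebrospinal fluid, while most other cells, neurons among them, carry at most a short immotile cilium.

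Promoter sequence shows which members carry the letters that these factors are known to bind. RefSeq promoters of GRCm38.p6, stretches of 300 bases that run from before to just after the start site, were matched by symbol for 8 of the 10 members, all but Foxj1 and Rsph1. Both strands were searched for a forkhead motif, GTAAACA, for the X-box half-site GTTGCC, and for the whole X-box, in which a half-site match may lie. The X-box was present in 2 of the 8 promoters, those of Hydin and Spef2, against 1.53% of all 32851 promoters. The half-site was present in the same 2 of 8, against 12.5%, and the forkhead motif in 1 of 8, that of Cfap43, against 3.65%. The promoters of these 3 genes are shown with the match in capitals, and that of Dnah9 beside them as a member in which none of the motifs was found.
Hydin (GRCm38.p6 chr8:110266727-110267026, plus strand): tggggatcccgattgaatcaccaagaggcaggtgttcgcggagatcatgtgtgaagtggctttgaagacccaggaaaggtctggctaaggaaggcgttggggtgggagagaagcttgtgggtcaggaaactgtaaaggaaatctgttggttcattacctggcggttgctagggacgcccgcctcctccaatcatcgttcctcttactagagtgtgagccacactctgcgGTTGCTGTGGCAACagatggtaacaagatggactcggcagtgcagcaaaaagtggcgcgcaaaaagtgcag
Spef2 (GRCm38.p6 chr15:9748819-9749118, minus strand): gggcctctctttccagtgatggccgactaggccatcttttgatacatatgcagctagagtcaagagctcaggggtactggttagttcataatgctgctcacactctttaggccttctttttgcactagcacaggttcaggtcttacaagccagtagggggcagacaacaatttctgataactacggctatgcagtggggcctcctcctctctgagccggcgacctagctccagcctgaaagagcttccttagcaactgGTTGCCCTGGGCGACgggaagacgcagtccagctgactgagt
Cfap43 (GRCm38.p6 chr19:47837312-47837611, minus strand): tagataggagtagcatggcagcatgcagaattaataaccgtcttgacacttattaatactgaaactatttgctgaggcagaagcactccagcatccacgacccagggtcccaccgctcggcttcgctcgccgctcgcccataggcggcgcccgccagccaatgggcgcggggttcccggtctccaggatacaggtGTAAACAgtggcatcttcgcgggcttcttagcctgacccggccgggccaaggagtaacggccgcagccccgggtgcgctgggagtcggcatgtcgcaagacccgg
Dnah9 (GRCm38.p6 chr11:66168502-66168801, minus strand): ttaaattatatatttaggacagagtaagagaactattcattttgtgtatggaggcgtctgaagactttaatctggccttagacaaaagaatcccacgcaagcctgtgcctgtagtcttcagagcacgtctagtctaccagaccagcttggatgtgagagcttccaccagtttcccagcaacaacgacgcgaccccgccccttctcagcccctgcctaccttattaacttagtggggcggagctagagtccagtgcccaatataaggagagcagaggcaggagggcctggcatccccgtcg
The Hydin match, GTTGCTGTGGCAAC, began 21 bases before the start site and the Spef2 match, GTTGCCCTGGGCGAC, at base 9 after it. The Cfap43 match, GTAAACA, began 55 bases before a RefSeq start site that lies inside the longer span given to this gene by GENCODE.

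Totals ran from 3149209 counts in EAE NeuN-negative library 2 to 37689267 in healthy NeuN-negative library 5. Libraries with the numbers EAE 2, EAE 4 and healthy 3 stood apart from their groups in both sorts. They had the highest or second highest share of mitochondrial counts of their group in each sort, from 3.0% in healthy NeuN-positive library 3 to 14.6% in EAE NeuN-negative library 2. As a level of genes with no known place in spinal cord, the 1461 olfactory and vomeronasal receptor genes of the table were summed as CPM, the usual read count relative to the library's total, and divided by their exon length in kilobases. This level was 0.498 and 0.419 in EAE NeuN-negative libraries 2 and 4, 0.102 in library 5 and about 0.0398 and 0.0395 in libraries 1 and 3. It was 0.0624 in healthy NeuN-negative library 3 and 0.00676 to 0.0208 in the other 4, and 0.00562 to 0.0843 over the NeuN-positive libraries. Calls that changed without these 3 numbers are given beside the results of the members.

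The sort was visible in the marker genes. Rbfox3, which encodes NeuN, had 313 ± 33.3 CPM (mean ± SD, n = 5) in healthy NeuN-positive and 29.7 ± 10.7 in healthy NeuN-negative nuclei, with 194 ± 58.6 and 29.3 ± 15.4 in EAE. The sort was not complete for all markers. The summed oligodendrocyte markers had 3682 to 44449 CPM (median 4703) in healthy NeuN-positive and 41881 to 71547 in healthy NeuN-negative libraries. In EAE they had 10834 to 98028 and 32262 to 110250 CPM, so the ranges of the sorts overlapped in both conditions. Other markers of ependymal cells, among them Ccdc153, Tmem212, Fam216b, Vim and Nes, were lower in healthy NeuN-positive nuclei for 8 of 11 tested and higher for 0 of 11, with a median log2 fold change of -1.77. Their summed level was 122 to 218 CPM in healthy NeuN-negative and 40.0 to 65.2 in healthy NeuN-positive libraries, and 0 of the 12 markers was at 0 in any group. The 10 motile cilia genes did not follow this pattern as a set: their summed level was 99.3 to 116 CPM in healthy NeuN-negative and 73.6 to 100.1 in healthy NeuN-positive libraries. Foxj1, Dnah9 and Ccdc39 had higher means in NeuN-positive than in NeuN-negative nuclei. The 10 genes are therefore called motile cilia genes here and are not read as a measure of ependymal nuclei. The sums do not measure how specific either set is to these nuclei: Vim and Nes alone had means of 52.9 and 34.4 CPM in healthy NeuN-negative nuclei. In sorted bulk RNA, fewer nuclei of a type and less RNA per nucleus cannot be told apart, for these and all results that follow.

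**Figure D1:**
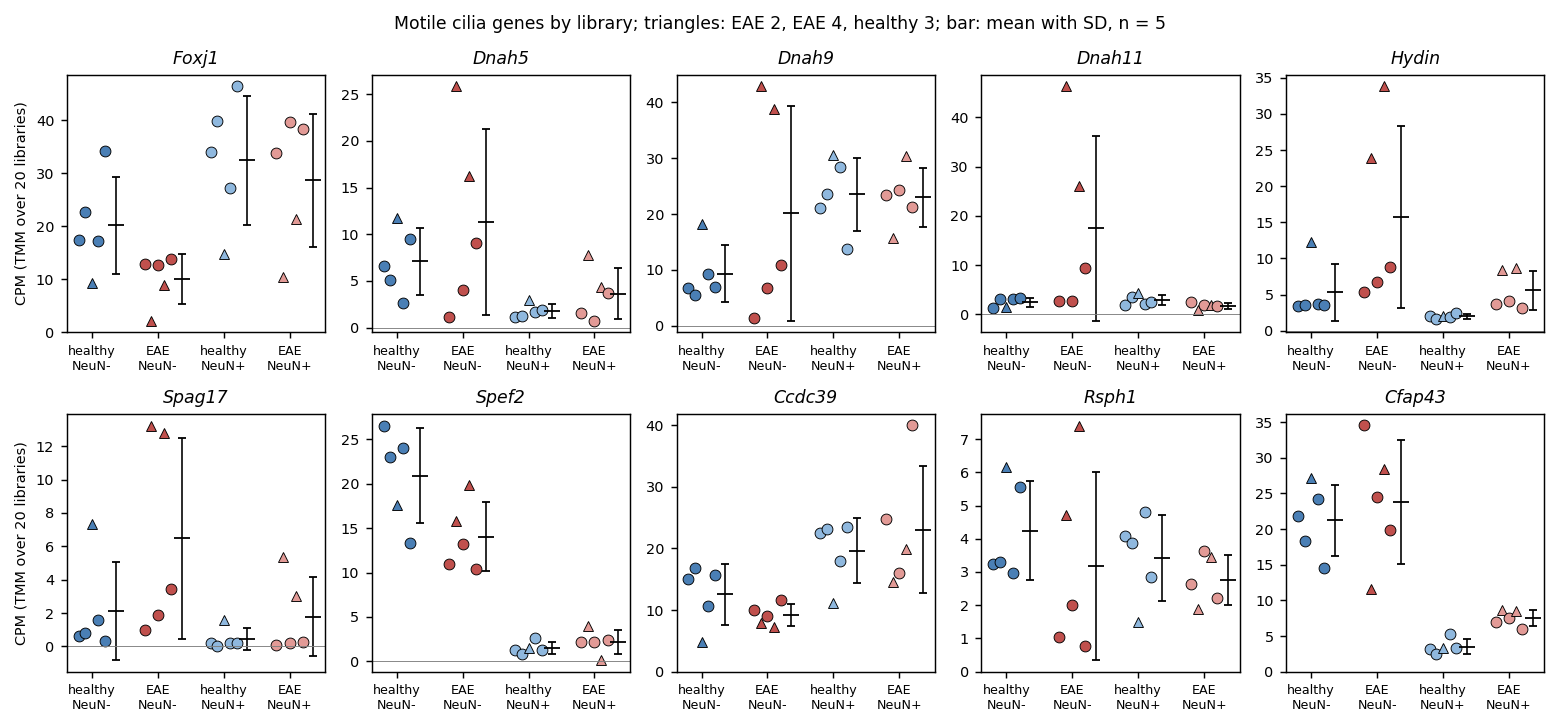
CPM of the 10 motile cilia genes (y axis, scaled by TMM over 20 libraries) in each library of the 4 groups (x axis), with the mean and SD of 5 libraries beside each group and triangles for libraries EAE 2, EAE 4 and healthy 3. Spef2 and Cfap43 lie far lower in NeuN-positive groups, Foxj1 and Ccdc39 have higher means there, and the high EAE NeuN-negative values of the dynein heavy chains, Hydin and Spag17 belong mostly to the triangles.

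Compared between genes, levels are given per kilobase of exon. In healthy NeuN-negative nuclei Foxj1 stood highest at 7.70 ± 3.50 CPM per kilobase (n = 5), followed by Rsph1 at 3.10 ± 1.09, Cfap43 at 3.01 ± 0.701, Spef2 at 2.11 ± 0.540 and Ccdc39 at 1.69 ± 0.666. The 3 outer arm genes and the other 2 central pair genes stood lower: Dnah9 at 0.584 ± 0.321, Dnah5 at 0.454 ± 0.229, Hydin at 0.295 ± 0.218, Spag17 at 0.251 ± 0.347 and Dnah11 at 0.171 ± 0.0642. In that order the ranges of neighbouring genes over the 5 libraries overlapped in all 9 pairs. In healthy NeuN-positive nuclei the order was Foxj1 at 12.4 ± 4.63, Ccdc39 at 2.64 ± 0.704, Rsph1 at 2.49 ± 0.936 and Dnah9 at 1.47 ± 0.413 CPM per kilobase, with the other 6 genes between 0.0511 (Spag17) and 0.496 (Cfap43). The levels of the low genes rest on few reads: a library held 12 to 128 counts of Dnah11 in healthy NeuN-negative and 0 to 16 counts of Spag17 in healthy NeuN-positive nuclei.

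Foxj1 (ENSMUSG00000034227, GRCm38 chromosome 11, 116330704 to 116335399, minus strand), the transcription factor, had 17.4, 22.7, 9.39, 17.2 and 34.2 CPM in healthy NeuN-negative libraries 1 to 5 and 33.9, 39.8, 14.8, 27.3 and 46.4 in healthy NeuN-positive libraries. In EAE it had 12.8, 2.21, 12.7, 9.01 and 13.7 CPM in NeuN-negative and 33.9, 10.4, 39.6, 21.3 and 38.2 in NeuN-positive libraries. All 4 groups overlapped with at least 1 other. Healthy library 3 was the lowest of its group in both sorts, and so was EAE library 2, whose NeuN-negative value rests on 7 counts. By mean, the order was healthy NeuN-positive, EAE NeuN-positive, healthy NeuN-negative and EAE NeuN-negative.

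DNAH5, DNAH9 and DNAH11 are heavy chains of the outer dynein arms, the motors that give the beat its power. Dnah5 (ENSMUSG00000022262, chromosome 15, 28203752 to 28472052, plus strand) had 6.55, 5.12, 11.7, 2.62 and 9.54 CPM in healthy NeuN-negative and 1.18, 25.8, 4.02, 16.2 and 9.10 in EAE NeuN-negative libraries 1 to 5. In NeuN-positive libraries it had 1.10, 1.27, 2.98, 1.71 and 1.86 CPM in healthy mice and 1.57, 7.74, 0.746, 4.32 and 3.74 in EAE. The NeuN-negative EAE values reached both below and above the healthy ones, with libraries 2 and 4 the highest. Dnah9 (ENSMUSG00000056752, chromosome 11, 65831282 to 66168551, minus strand) had 6.76, 5.48, 18.1, 9.21 and 6.96 CPM in healthy and 1.47, 42.9, 6.81, 38.8 and 10.8 in EAE NeuN-negative libraries. In NeuN-positive nuclei it had 21.1, 23.7, 30.5, 28.5 and 13.8 CPM in healthy and 23.4, 15.8, 24.4, 30.4 and 21.2 in EAE libraries, so the 4 groups overlapped. In healthy mice the overlap came from NeuN-negative library 3, which lay above NeuN-positive library 5.

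Dnah11 (ENSMUSG00000018581, chromosome 12, 117877982 to 118199043, minus strand) had 1.37, 3.04, 1.54, 3.07 and 3.30 CPM in healthy NeuN-negative libraries and 2.79, 46.3, 2.68, 26.0 and 9.44 in EAE NeuN-negative libraries. EAE libraries 2, 4 and 5 were above every healthy library, while libraries 1 and 3 were within the healthy range. In NeuN-positive nuclei it had 1.95, 3.54, 4.27, 2.12 and 2.59 CPM in healthy and 2.57, 0.789, 1.89, 1.87 and 1.71 in EAE libraries. Every EAE NeuN-positive value was below every EAE NeuN-negative value. Of its exon bases, 642 (4.44%) also belong to Cdca7l on the opposite strand, and the sources used here do not say whether counting used strand. Cdca7l had 0.594 ± 0.383 CPM in healthy and 2.87 ± 1.19 in EAE NeuN-negative nuclei, and its part in the Dnah11 counts was not tested.

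HYDIN, SPAG17 and SPEF2 belong to the central pair and its projections, which steer the beat. Hydin (ENSMUSG00000059854, chromosome 8, 110266977 to 110610253, plus strand) had 3.45, 3.53, 12.3, 3.75 and 3.53 CPM in healthy NeuN-negative and 5.37, 24.0, 6.70, 33.8 and 8.84 in EAE NeuN-negative libraries. All EAE values were above 4 of the 5 healthy values, and healthy library 3 lay among the EAE ones. In NeuN-positive nuclei it had 2.05, 1.56, 2.09, 1.92 and 2.52 CPM in healthy and 3.71, 8.37, 4.08, 8.63 and 3.21 in EAE libraries, without overlap. The NeuN-positive EAE libraries 2 and 4 were again the highest.

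Spef2 (ENSMUSG00000072663, chromosome 15, 9578193 to 9748868, minus strand) had 26.6, 23.1, 17.6, 24.0 and 13.3 CPM in healthy NeuN-negative and 1.25, 0.844, 1.49, 2.60 and 1.26 in healthy NeuN-positive libraries. In EAE it had 11.0, 15.8, 13.2, 19.8 and 10.4 CPM in NeuN-negative and 2.14, 3.95, 2.14, 0.144 and 2.36 in NeuN-positive libraries. The sorts did not overlap in either condition, and EAE overlapped with healthy in both sorts. Spag17 (ENSMUSG00000027867, chromosome 3, 99885406 to 100143322, plus strand) ranged from 0.309 to 7.33 CPM in healthy and 0.956 to 13.2 in EAE NeuN-negative libraries. In NeuN-positive libraries it ranged from 0 to 1.59 in healthy mice and 0.0713 to 5.37 in EAE. Its highest values lay in healthy library 3 and EAE libraries 2 and 4 in both sorts. The count of 0 in healthy NeuN-positive library 2 allows up to 0.0974 CPM, counting error only (3 counts of the library). Spag17 shares 820 exon bases (9.66%) with Wdr3 on the opposite strand, which had 31.7 ± 8.39 CPM in healthy NeuN-negative nuclei.

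CCDC39 is the ruler that spaces inner arms and spokes along a doublet, and CFAP43 tethers one of the inner arms. Cfap43 (ENSMUSG00000044948, chromosome 19, 47736857 to 47919287, minus strand) had 21.9, 18.3, 27.1, 24.2 and 14.5 CPM in healthy NeuN-negative and 3.15, 2.44, 3.28, 5.27 and 3.37 in healthy NeuN-positive libraries. In EAE it had 34.6, 11.7, 24.5, 28.4 and 19.9 CPM in NeuN-negative and 6.91, 8.68, 7.56, 8.49 and 5.97 in NeuN-positive libraries. The sorts were apart in both conditions, and within the NeuN-positive sort all EAE libraries were above all healthy ones. Ccdc39 (ENSMUSG00000027676, chromosome 3, 33812362 to 33844310, minus strand) had 15.0, 16.8, 4.76, 10.7 and 15.6 CPM in healthy NeuN-negative and 22.5, 23.1, 11.1, 18.0 and 23.5 in healthy NeuN-positive libraries. In EAE it had 10.1, 7.88, 9.05, 7.21 and 11.7 CPM in NeuN-negative and 24.8, 14.5, 16.0, 19.9 and 40.1 in NeuN-positive libraries, without overlap, whereas the healthy sorts overlapped. Of its exon bases 1256 (16.87%) are also exonic in Ttc14 on the opposite strand. Ttc14 was far more abundant, at 132 ± 62.2 CPM in healthy NeuN-negative, 62.8 ± 31.4 in EAE NeuN-negative, 148 ± 88.0 in healthy NeuN-positive and 122 ± 49.4 in EAE NeuN-positive nuclei. Without strand, reads of this stretch cannot be told apart, so the Ccdc39 level is uncertain.

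RSPH1 is a protein of the radial spoke head. Rsph1 (ENSMUSG00000024033, chromosome 17, 31255019 to 31277383, minus strand) ranged from 2.96 to 6.17 CPM in healthy NeuN-negative, 0.773 to 7.41 in EAE NeuN-negative, 1.49 to 4.79 in healthy NeuN-positive and 1.89 to 3.63 in EAE NeuN-positive libraries. All 4 groups overlapped. The highest EAE NeuN-negative values were those of libraries 4 and 2, at 7.41 and 4.73 CPM, and the other 3 were at most 2.01.

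The first comparison asked how NeuN-positive differed from NeuN-negative nuclei of the healthy spinal cord. Spef2 (log2 fold change -3.79 ± 0.35, adjusted p = 3.76e-06 by edgeR's quasi-likelihood test with Benjamini-Hochberg adjustment over all genes), Cfap43 (-2.59 ± 0.30, adjusted p = 2.21e-05), Dnah5 (-1.99 ± 0.46, adjusted p = 0.00358) and Hydin (-1.39 ± 0.46, adjusted p = 0.0267) were lower in NeuN-positive nuclei. Spef2 was 14.0-fold and Cfap43 6.06-fold lower by mean CPM. Dnah9 went the other way and was higher in NeuN-positive nuclei (1.34 ± 0.39, adjusted p = 0.0135). At an adjusted p under 0.05, 4 of the 10 members thus lay below and 1 above, where 23.0% of all 17134 genes tested lay below and 22.8% above. Dnah5 and Dnah9, motors of the same arm, had opposite signs. The ranges of the sorts did not overlap for Hydin, Spef2 and Cfap43, and the share of all genes without overlap was not counted. These are the 3 members in whose promoters a motif was matched. In EAE, however, the sorts overlapped for Hydin and did not for Dnah11 and Ccdc39, whose promoters held no match. This is a description and was not tested.

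The other 5 did not pass: Foxj1 had 0.74 ± 0.34 (adjusted p = 0.0978), Ccdc39 0.70 ± 0.31 (0.0847), Spag17 -2.45 ± 1.19 (0.114), Dnah11 0.28 ± 0.38 (0.594) and Rsph1 -0.30 ± 0.38 (0.555). NeuN-positive and NeuN-negative libraries of 1 number varied together, and with the number as a block Foxj1 (adjusted p = 5.51e-04) and Ccdc39 (0.00152) were also called higher and Spag17 (0.0116) lower, which makes 3 higher and 5 lower. The block raised the calls of all genes as well, to 5683 higher and 5560 lower of 17134. The median log2 fold change of the members was -0.85, against -0.01 for all genes tested. The Hydin call was lost without NeuN-positive library 1 (adjusted p = 0.0558) or 2 (0.0687), and without healthy number 3 the Hydin value went from -1.39 ± 0.46 to -0.77 ± 0.27 (adjusted p = 0.0344). Leaving out NeuN-negative library 3 alone gave -0.75. Without healthy number 3 in both sorts Foxj1 (adjusted p = 0.04) and Ccdc39 (0.0217) were called higher as well. In the same libraries 9 of 12 neuronal markers passed as higher, and 12 of 12 astrocyte, 10 of 12 oligodendrocyte, 9 of 14 leukocyte and 10 of 10 endothelial markers as lower; the part of each cell type in the members' levels was not tested.

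In EAE the same contrast gave 2 members higher and 4 lower of 10, against 15.5% and 14.8% of 17982 genes. Higher in NeuN-positive nuclei were Foxj1 (1.43 ± 0.44, adjusted p = 0.0212) and Ccdc39 (1.23 ± 0.36, adjusted p = 0.0159). Lower were Dnah11 (-3.48 ± 0.76, adjusted p = 0.00257), Spef2 (-2.84 ± 0.59, adjusted p = 0.00176), Cfap43 (-1.75 ± 0.35, adjusted p = 0.00122) and Hydin (-1.69 ± 0.57, adjusted p = 0.0326). With the number as a block Dnah5 (adjusted p = 0.0383) and Spag17 (0.00713) were lower too, where 3596 of 17982 genes were higher and 3196 lower. Dnah9 had 0.00 ± 0.46 (adjusted p = 1), and without EAE numbers 2 and 4 it had 1.81 ± 0.56 (adjusted p = 0.0247) and was called higher. The members' median was -1.72, against -0.16 for all genes, a value that moved to -0.27 with DESeq2 size factors in place of TMM.

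Without EAE numbers 2 and 4 the Dnah11 value went to -1.31 ± 0.60 (adjusted p = 0.105) and the Hydin value to -0.95 ± 0.40 (adjusted p = 0.0799), and neither was called, while Spag17 became called lower (-3.52 ± 0.90, adjusted p = 0.0101). In EAE 10 of 12 neuronal markers were higher and 12 of 16 leukocyte, 9 of 12 oligodendrocyte and 5 of 12 astrocyte markers lower in NeuN-positive nuclei, and their part in the members' values was not tested. Without NeuN-negative library 2 alone Dnah11 had -2.60 and stayed called. Single libraries ended calls of Foxj1 (without NeuN-positive library 3 or 5, adjusted p = 0.0533 and 0.0563), Ccdc39 (NeuN-positive 5, 0.0774) and Hydin (NeuN-positive 1, 3 or 5 and NeuN-negative 2 or 4, 0.0721 to 0.153).

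**Figure D2:**
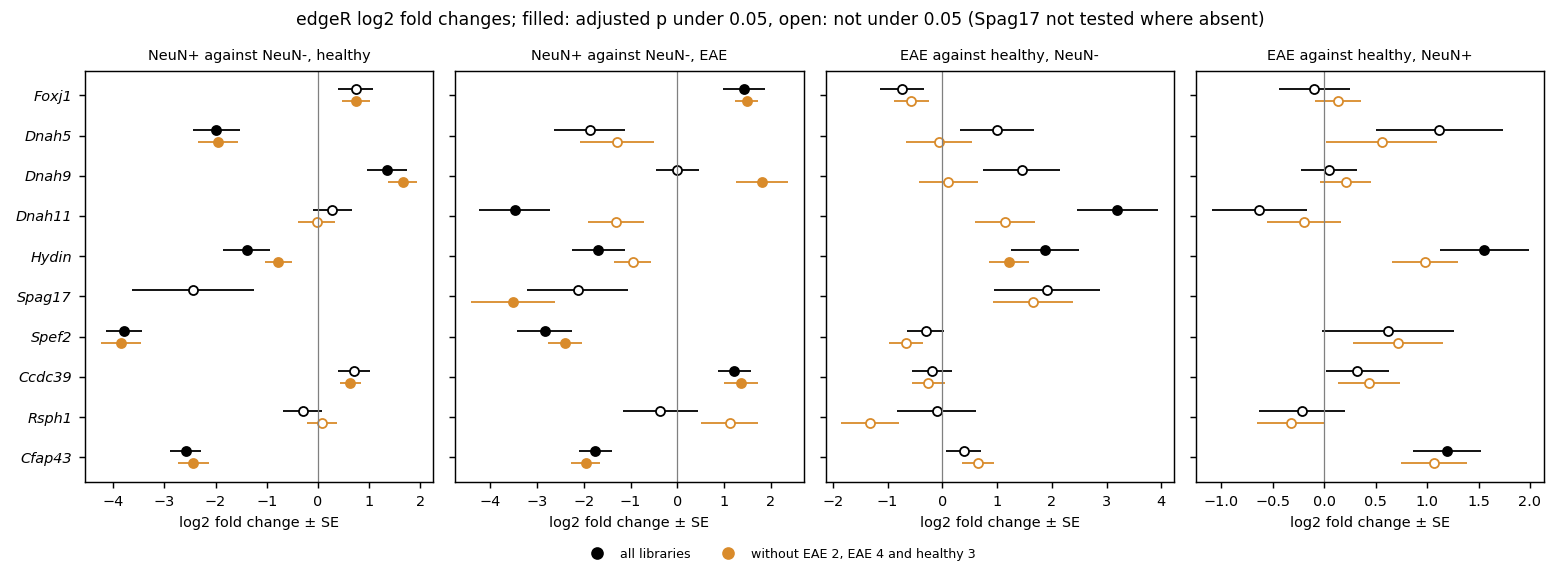
Log2 fold change with its standard error (x axis) of each motile cilia gene (y axis) in the 4 comparisons, from all libraries (black) and without EAE 2, EAE 4 and healthy 3 (orange), with filled points at an adjusted p under 0.05. Spef2 and Cfap43 keep their sort difference in both fits and both conditions, whereas Dnah11 in EAE goes from 3.20 to 1.15 in NeuN-negative nuclei when the 3 numbers are left out.

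The comparison of EAE with healthy mice among NeuN-negative nuclei, the sort that holds ependymal nuclei if they lack NeuN, gave 2 higher members and 0 lower of 10. Dnah11 was higher in EAE (3.20 ± 0.75, adjusted p = 0.00544) and so was Hydin (1.87 ± 0.62, adjusted p = 0.0331). Per kilobase, Dnah11 lay at 5.23 to 7.04 times the olfactory and vomeronasal receptor level in EAE libraries and 1.60 to 34.7 times in healthy ones. Hydin lay at 2.69 to 10.8 times that level in EAE and 10.1 to 29.8 times in healthy libraries. The level itself had a median of 0.102 in EAE and 0.0112 in healthy NeuN-negative libraries, and its part in these calls was not tested. Among all 17604 genes tested 15.1% were higher and 12.6% lower, so the count of higher members, 2 of 10, lies near the background. At an unadjusted p under 0.05 the same number passed, both higher. DESeq2's Wald test also called 0 members lower, where it called 2622 of all 17604 genes lower. Limma with voom quality weights called 1 member lower, Spef2 (-0.78, adjusted p = 0.021), where it called 4552 of all 17604 genes lower. Foxj1 had -0.74 ± 0.41 (adjusted p = 0.184), with 20.2 ± 9.17 CPM in healthy and 10.1 ± 4.76 in EAE nuclei. The remaining 7 had values from -0.30 (Spef2) to 1.91 (Spag17) with adjusted p from 0.13 (Dnah9) to 0.928 (Rsph1). The members' median was 0.69, against 0.05 for all genes.

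The EAE NeuN-negative values turned on libraries 2 and 4. These held the highest EAE value for 7 of 10 members and the lowest for Foxj1, Ccdc39 and Cfap43. Without EAE 2, EAE 4 and healthy 3, Dnah11 had 4.97 ± 3.87 CPM (n = 3) in EAE and 2.70 ± 0.891 (n = 4) in healthy nuclei, which gave 1.15 ± 0.55 (adjusted p = 0.138). Hydin had 6.97 ± 1.75 CPM in EAE and 3.57 ± 0.129 in healthy nuclei, and was still called (1.22 ± 0.37, adjusted p = 0.0247). Dnah9 went from 1.45 ± 0.70 to 0.11 ± 0.54 (adjusted p = 0.896) and Dnah5 had -0.06 ± 0.61 (adjusted p = 0.95). With a single library left out, Dnah11 stayed called (adjusted p at most 0.0196, with 2.30 without EAE library 2), Spag17 became called without healthy library 3 (3.26, adjusted p = 0.0125) and Dnah9 without EAE library 1 (adjusted p = 0.0406), while Hydin was not called without EAE library 2 or 4 or healthy library 1, 2, 4 or 5 (adjusted p 0.0741 to 0.142).

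Other cell types moved with this comparison. Of 16 leukocyte markers 15 were higher in EAE, with a summed level of 1720 to 5769 CPM against 378 to 534 in healthy nuclei, while 7 of 12 oligodendrocyte and 6 of 12 astrocyte markers were lower. No leukocyte marker was at 0 in either group. Among the 11 other ependymal markers tested Vim was higher (log2 fold change 2.83 ± 0.38, adjusted p = 6.63e-05) and Ccdc153 lower (log2 fold change -1.71 ± 0.55, adjusted p = 0.0312). Vim, an intermediate filament gene, is also known from leukocytes and reactive astrocytes, and the part of these cells in the members' values was not tested.

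Among NeuN-positive nuclei, 9 members were tested and Spag17 did not pass the filter on low counts. Hydin (1.56 ± 0.43, adjusted p = 0.035) and Cfap43 (1.19 ± 0.33, adjusted p = 0.0365) were higher in EAE. These were 2 higher and 0 lower of 9, against 6.55% and 3.68% of 16675 genes. At an unadjusted p under 0.05 the same 2 passed. DESeq2's Wald test and limma likewise called 0 members lower, where they called 1251 and 3884 of all 16675 genes lower. By mean, Hydin was 2.76-fold and Cfap43 2.15-fold higher, with all 5 EAE libraries above all 5 healthy ones in both. The share of all genes without overlap was not counted. The olfactory and vomeronasal receptor level had a median of 0.0220 in EAE and 0.00628 in healthy NeuN-positive libraries. Per kilobase, Hydin lay at 4.93 to 21.6 times that level in EAE and 6.25 to 26.0 times in healthy libraries. Cfap43 lay at 13.1 to 102.5 and 25.1 to 97.3 times. The part of that level in these calls was not tested. Among the other 7, Dnah5 had 1.12 ± 0.62 (adjusted p = 0.246), Spef2 0.62 ± 0.64 (0.547) and Dnah11 -0.63 ± 0.46 (0.388), and Foxj1, Dnah9, Ccdc39 and Rsph1 lay between -0.22 and 0.32. The median of the 9 was 0.32, against -0.03 for all genes.

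Neither call held without EAE 2, EAE 4 and healthy 3 (Hydin 0.98 ± 0.32, adjusted p = 0.0834; Cfap43 1.07 ± 0.32, adjusted p = 0.0664). Hydin also lost its call without EAE library 2 or 4 or healthy library 1, 2, 4 or 5 (adjusted p 0.0502 to 0.104), and Cfap43 without EAE library 1, 2, 4 or 5 or healthy library 1, 2 or 5 (0.0546 to 0.117). The leukocyte markers were higher in this sort too, 15 of 16 tested, with a summed level of 727 to 2568 CPM against 71.9 to 167, and their part in these values was not tested. Of the 8 other ependymal markers tested 3 were higher, Vim, Rarres2 and Tm4sf1, and 0 lower, and without the 3 numbers Vim and Tm4sf1 were.

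Whether EAE acted differently in the sorts was tested as an interaction over all 20 libraries. By mean, Dnah11 went from 2.47 CPM in healthy to 17.5 in EAE NeuN-negative nuclei. In NeuN-positive nuclei it went from 2.90 to 1.76 CPM, a change that was not called. The interaction value of Dnah11 differed from 0 (-3.50 ± 0.86, adjusted p = 0.0292). This made 0 members higher and 1 lower of 10, against 1.74% and 0.822% of 20444 genes. At an unadjusted p under 0.05 Dnah11 alone passed, DESeq2 called 0 higher, and limma called 2 higher, Spef2 and Cfap43. With DESeq2 size factors the median of all genes went from 0.15 to -0.11 and the split of all calls from 356 higher and 168 lower to 236 and 236. The Dnah11 value was then -3.98 ± 0.91 (adjusted p = 0.0228). It was not called with each sort pair as a block (-2.63 ± 0.93, adjusted p = 0.0743) nor without the 3 numbers (-1.36 ± 0.68, adjusted p = 0.305). Without single libraries it missed the threshold for EAE NeuN-negative 2 and 4, EAE NeuN-positive 1, 4 and 5, healthy NeuN-negative 1, 2 and 4 and healthy NeuN-positive 1 and 2 (adjusted p 0.0515 to 0.0746). The other 9 members ran from -1.15 (Dnah9) to 1.11 (Spef2) with adjusted p of at least 0.282, and the members' median was 0.40 against 0.15.

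To see how far the members varied together between libraries, they were correlated on log2(CPM + 1) after removing group means. Over the 10 NeuN-negative libraries the 45 pairs of members had r from -0.791 to 0.964, with a median of 0.188, and 24 were above 0. Dnah5, Dnah9, Dnah11, Hydin, Spag17 and Rsph1 varied together in all 15 of their pairs (r 0.652 to 0.964). Foxj1 ran opposite to these 6, with r from -0.791 with Spag17 to -0.494 with Rsph1, and went with Ccdc39 (0.629). Without EAE 2, EAE 4 and healthy 3, over 7 libraries, the r of Foxj1 was 0.496 with Dnah5, 0.366 with Dnah11, 0.616 with Rsph1, 0.0456 with Hydin, -0.0279 with Dnah9 and -0.411 with Spag17, so the opposite course rested on those libraries for most of the 6, and r with Ccdc39 was 0.523. In NeuN-positive libraries the 15 pairs had r from -0.587 to 0.863, and Foxj1 again went with Ccdc39 (0.729) and opposite to Spag17 (-0.913). Without the 3 numbers these became 0.217 and -0.152, and the 15 pairs ran from -0.954 to 0.827. The libraries share depth and composition, and the 6 genes were grouped after their values were seen, so these r are descriptions.

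**Figure D3:**
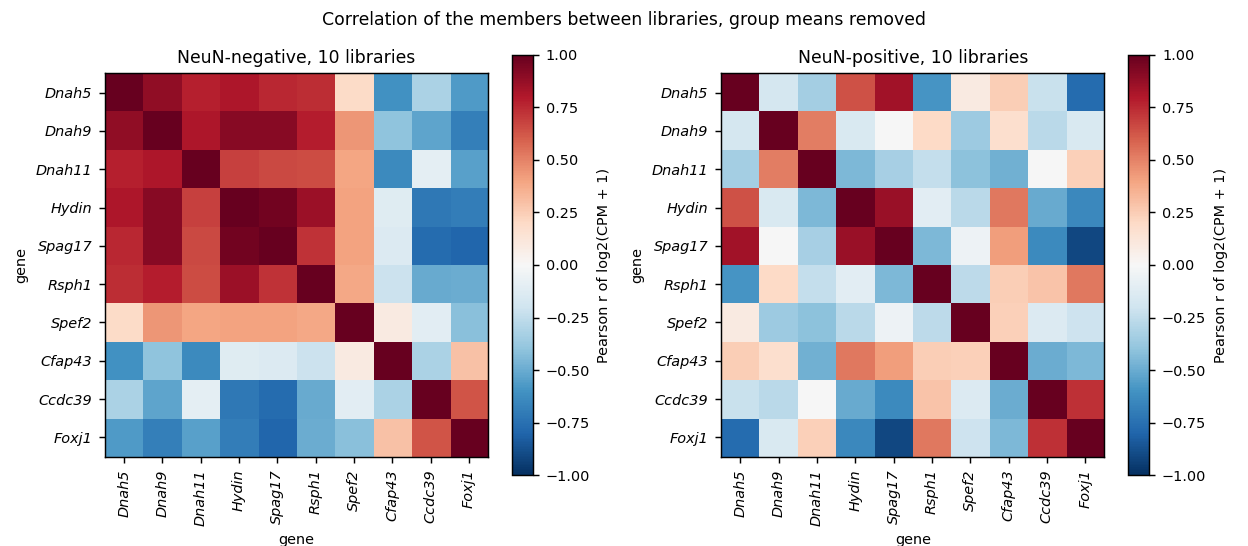
Pearson r (colour, from -1 to 1) between the members (x and y axes) over the 10 NeuN-negative libraries (left) and the 10 NeuN-positive libraries (right), on log2(CPM + 1) with group means removed. At left Dnah5, Dnah9, Dnah11, Hydin, Spag17 and Rsph1 form a block of r from 0.652 to 0.964, opposite to Foxj1; at right the 15 pairs run from -0.587 to 0.863.

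In NeuN-negative libraries the shared variation went with the level of olfactory and vomeronasal receptor genes. Over the 10 NeuN-negative libraries r with that level was 0.976 for Spag17, 0.931 for Hydin, 0.897 for Dnah9, 0.731 for Dnah5, 0.691 for Dnah11 and 0.67 for Rsph1. It was 0.414 for Spef2, -0.153 for Cfap43, -0.733 for Ccdc39 and -0.835 for Foxj1. Without EAE 2, EAE 4 and healthy 3, over 7 libraries, it was 0.856 for Spag17, 0.671 for Hydin, 0.608 for Dnah9, 0.507 for Dnah11, 0.0877 for Dnah5, -0.329 for Ccdc39, -0.537 for Foxj1 and -0.712 for Rsph1. The 15 pairs of the 6 genes then ran from -0.515 to 0.93, with 11 above 0. In the 10 NeuN-positive libraries r with that level was 0.93 for Spag17, 0.922 for Dnah5, 0.667 for Hydin, 0.0283 for Dnah9, -0.262 for Dnah11, -0.604 for Rsph1 and -0.95 for Foxj1, and without the 3 numbers it was 0.24 for Spag17, 0.816 for Dnah5, -0.498 for Hydin and -0.513 for Foxj1.

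**Figure D4:**
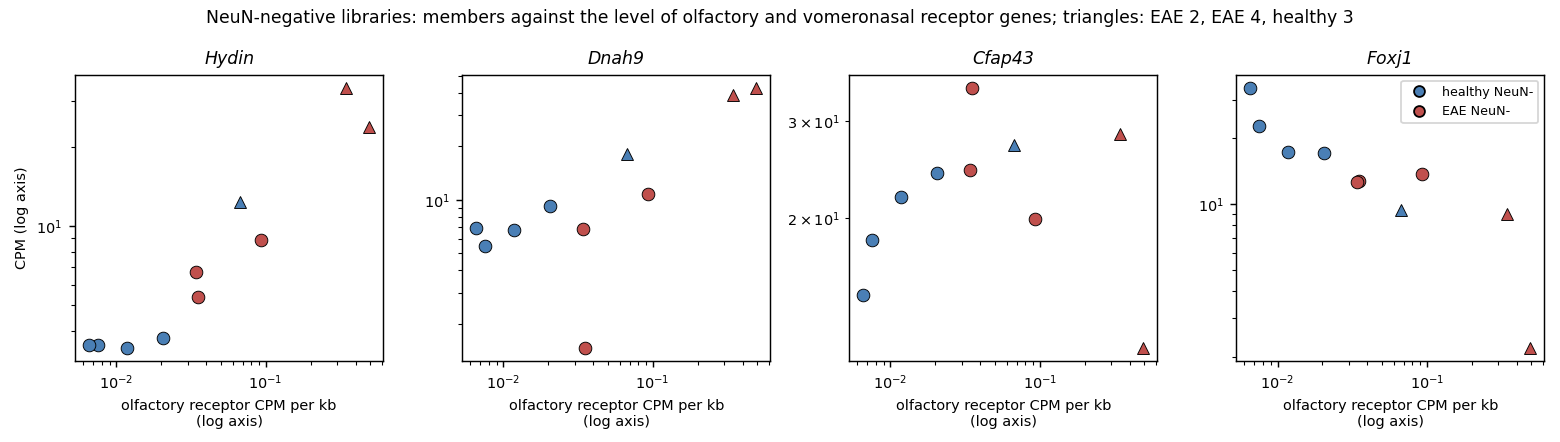
CPM (y axis, log scale) of Hydin, Dnah9, Cfap43 and Foxj1 against the TMM-scaled level of olfactory and vomeronasal receptor genes (x axis, CPM per kilobase, log scale) in the 5 healthy (blue) and 5 EAE (red) NeuN-negative libraries, with triangles for EAE 2, EAE 4 and healthy 3. Hydin and Dnah9 are highest in EAE libraries 2 and 4, where that level is highest (r 0.931 and 0.897 within groups), and Foxj1 is lowest in these (r -0.835). Between these libraries, Hydin is higher in 4 and the receptor level in 2.

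The genes most like the mean of the members' standardised log2(CPM + 1) were none of the listed cilia genes. Over all 20 libraries and 18162 genes with at least 1 CPM on average, those with the highest r included Gm4221 (0.92), Tmprss11a (0.915), Acrv1 (0.906), Gm15462 (0.897), Paupar (0.895), Wdr72 (0.894) and Prdm13 (0.893). Within the NeuN-negative groups, over 10 libraries and 19961 genes, the 8 with the highest r were Gm10475 (0.996), Pnliprp1 (0.988), Agrp (0.987), Olfr459 (0.986), Gm11501 (0.985), Gm37393 (0.985), Gm9932 (0.984) and Slc13a2 (0.984). Several of these are known from other organs: Acrv1 from sperm, Pnliprp1 from the pancreas and Agrp from the hypothalamus. Of the members themselves, Dnah5 (0.854), Hydin (0.849) and Spag17 (0.766) were closest to their own mean over 20 libraries, and Foxj1 (-0.606) and Ccdc39 (-0.502) ran opposite to it.

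The other genes of motile cilia were read from lists of dynein arms, nexin link, central pair, radial spokes, arm assembly, microtubule inner proteins and multicilia transcription, 95 genes with the members left out. In healthy mice 17 of 87 tested passed as higher and 25 as lower with the NeuN-positive sort, against 22.8% and 23.0% of all genes, with a median of 0.02 against -0.01. Lower, like Spef2 and Cfap43, were the outer arm genes Dnaic2 (log2 fold change -3.54 ± 0.29, adjusted p = 1.43e-06) and Ccdc114 (log2 fold change -2.42 ± 0.31, adjusted p = 4.39e-05), the inner arm genes Dnah3 and Dnah6, the central pair gene Spag16 and the transcription factor Rfx2 (log2 fold change -2.29 ± 0.30, adjusted p = 5.23e-05). Higher, like Dnah9, were the inner arm gene Dnah1 (log2 fold change 2.10 ± 0.32, adjusted p = 2.08e-04), the central pair genes Cfap69 (from 29.3 to 80.8 CPM) and Stk36, and Deup1, a gene of centriole amplification (log2 fold change 3.32 ± 0.57, adjusted p = 4.64e-04). Every structural list held genes called in each direction: the outer arm had 1 higher and 3 lower of 11, the inner arm 2 and 5 of 10, the central pair 3 and 5 of 12, and the nexin, ruler and tether list 5 and 2 of 11, the members among them. Radial spokes had 1 and 2 of 13, arm assembly 2 and 2 of 11, microtubule inner proteins 2 and 8 of 18 and multicilia transcription 2 and 2 of 11.

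In EAE the same sort contrast gave 7 higher and 17 lower of 81 motile cilia genes without the members, where 15.5% and 14.8% of all genes were called (median -0.73 against -0.16). Without EAE numbers 2 and 4 it gave 14 higher and 10 lower of 82 (median -0.06 against -0.08), where 3787 and 3768 of all 18111 genes were called. Kifap3, part of the motor that carries cargo into cilia, was higher in NeuN-positive nuclei (log2 fold change 1.87 ± 0.31, adjusted p = 2.83e-04), as was Ccdc65 of the nexin link (from 3.74 to 21.2 CPM).

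Between EAE and healthy NeuN-negative nuclei, 7 of the 83 motile cilia genes without the members were higher and 7 lower, where 15.1% and 12.6% of all genes were called, with a median of 0.32 against 0.05. Without EAE 2, EAE 4 and healthy 3 they were 5 and 12 of 85, where 3197 and 2258 of all 18333 genes were called. The median was then -0.33 against 0.03. Higher were Cfap45, which sits inside the doublet (log2 fold change 2.31 ± 0.59, adjusted p = 0.00949), the assembly factor genes Lrrc6 (from 0.687 to 5.14 CPM) and Dnaaf3, the spoke gene Rsph14 and the inner arm genes Dnah2 and Dnah7a, the last with near-identical copies among which reads could be split. Myb, a transcription factor of multiciliated and of dividing blood cells, was higher as well (log2 fold change 2.01 ± 0.49, adjusted p = 0.0075). Lower were Ccdc114 of the outer arm (log2 fold change -1.10 ± 0.30, adjusted p = 0.0123), Cfap100 (from 99.0 to 24.3 CPM), Rsph10b, Cfap69, Cfap20 and 1700007K13Rik (log2 fold change -1.84 ± 0.44, adjusted p = 0.00599). Of these 13 genes, Dnah2, Lrrc6, Rsph14, Cfap100, Cfap69 and Rsph10b were not called without the 3 numbers (adjusted p 0.0590 for Cfap100 to 0.472 for Dnah2), and the other 7 were.

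Genes of intraflagellar transport, which serves immotile cilia too, were lower in EAE NeuN-negative nuclei for 7 of 22 and higher for 0, where 12.6% and 15.1% of all genes were, with a median of -0.61 against 0.05, among them Cluap1 (log2 fold change -1.42 ± 0.40, adjusted p = 0.0156) and Ift46. Without the 3 numbers 3 of 22 were lower, where 2258 of all 18333 genes were, with Cluap1 among the 3 and Ift46 not (adjusted p = 0.0635). In NeuN-positive nuclei 1 of 22 was lower, Ift122 (log2 fold change -0.94 ± 0.26, adjusted p = 0.0368), and 0 were higher, where 3.68% and 6.55% of all genes were. Of 81 other motile cilia genes 1 was higher and 1 lower. The 1 higher was Cfap46, at 304 ± 378 CPM against 23.2 ± 27.0, a spread larger than its mean. The 1 lower was Dnah1 (log2 fold change -1.59 ± 0.33, adjusted p = 0.00747), which was also among the 3 of 87 genes with a lower interaction value, with Dnah7a and Cfap45, while 0 of 87 had a higher one. Of all 20444 genes tested for the interaction, 0.822% were called lower and 1.74% higher. Without the 3 numbers neither Ift122 (adjusted p = 0.0892) nor Dnah1 (0.0575) was called in NeuN-positive nuclei, and Cfap46 was, while Dnah1, Dnah7a and Cfap45 kept their interaction calls (adjusted p 0.0295 to 0.0337).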

How the data were processed

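The authors deposited 1 table of raw counts per gene for 20 libraries, with Ensembl gene identifiers. STAR 2.4, DESeq2 and the builds GRCm39 and mm10 are named in the submitters' processing notes, with no role; the sources used here do not give the counting tool, annotation or use of strand. Identifiers were matched to GENCODE M21 (GRCm38) for symbols, positions and exon length, which 42462 of 43629 genes had. Levels are CPM with TMM factors over all 20 libraries, computed from the deposited counts. Of the 43629 genes, 5168 had 0 counts in every library.

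Each comparison was an edgeR 4.0.16 quasi-likelihood test (R 4.3.3) after filterByExpr by group, with TMM and a robust fit on the libraries compared, with p-values adjusted by Benjamini-Hochberg over all genes tested and called under 0.05. Values after ± are SD for levels and standard errors for log2 fold changes. The standard errors were derived as the size of the log2 fold change divided by the square root of the test's F statistic. The fit was tested on counts simulated from the means and totals of the NeuN-negative libraries, with a common spread and known fold changes. The simulation held no libraries that stood apart and no pairing, so it does not show how the fit performs with these. The alternatives were DESeq2 1.42.0 size factors and Wald test, limma 3.58.1 with voom quality weights, no or a stricter count filter (1 CPM in 5 libraries), the library number as a block, 1 fit over the 4 groups, and leaving out libraries. Tables and figures used Python 3.11.15, pandas 2.3.3, numpy 2.4.6 and matplotlib 3.10.9.

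Pairing was checked on deviations from group means. Libraries of the same number in the NeuN-positive and NeuN-negative sort correlated with r of 0.422 to 0.78 in healthy mice and 0.214 to 0.475 in EAE, against -0.597 to 0.469 and -0.305 to 0.206 between different numbers. All 10 pairs were over 0.1, although the healthy ranges overlap, so the library number was used as a block in an alternative fit. The main fits of all comparisons did not use the pairing. That the numbers pair the sorts comes from the data, not the labels. The 40 pairs of libraries within groups all differed by more than sampling noise (chi-square per gene 11.1 to 392.8).

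The members and gene lists were chosen with earlier results of these data known. Beside the 10 members, the rule named up to 2 higher and 2 lower called genes per cilia or ependymal list and comparison, by smallest p, and the 8 genes most like the members' mean, of which 1 is not reported here; other names given for counts of 5 or fewer were chosen after their values were seen.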

Additional observations from a re-analysis of the deposited data

Results flagged for a closer look

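In 3 of the 40 sets of 5 libraries (10 genes in 4 groups), 1 library stood apart by a gap of more than 0.71 of the set's range; chance gives about 1 in 20. Hydin in healthy NeuN-negative library 3 had 12.3 CPM, against 3.45 to 3.75 in the other 4. Spag17 had 7.33 CPM in the same library, against 0.309 to 1.59, and 1.59 CPM in healthy NeuN-positive library 3, against 0 to 0.205. These libraries also had the highest mitochondrial share and olfactory receptor level of their groups, and the part of either was not tested. The EAE effect on Dnah11 differed between the sorts in the interaction test (-3.50, edgeR adjusted p = 0.0292), a value whose dependence on libraries is given with that comparison.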

How the results depend on the processing

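No direction of a called member reversed. Of the called members' values, 113 stayed called and 14 did not under other settings, and 131 and 39 with 1 library left out; of uncalled values 22 and 10 became called. The number of higher members in EAE NeuN-negative nuclei went from 2 to 1 with a replicate block and to 1 without EAE 2, EAE 4 and healthy 3, and ranged from 1 to 3 with 1 library left out; the lower count went from 0 to 1 with voom. In NeuN-positive nuclei the higher count went from 2 to 0 without a count filter, 0 with the replicate block, 1 in the fit on all 20 libraries and 0 without the 3 numbers, and ranged from 0 to 2 with 1 library left out. These numbers pair no EAE with healthy libraries (r -0.332 to 0.309 and -0.39 to 0.299). For the healthy sort comparison the higher count went from 1 to 2 with DESeq2's Wald test, 3 with voom, 3 with the replicate block, 0 in the fit on all 20 libraries and 3 without the 3 numbers, ranging from 1 to 3 with 1 library left out; in EAE the count of 2 went to 3 with voom and without the 3 numbers and ranged from 0 to 2 with 1 library left out. For the interaction, voom called 2 higher, and the lower count of 1 went to 0 with the replicate block and without the 3 numbers, ranging from 0 to 1. The block changed no other sort call than those given with the comparisons. Over all genes the interaction gave 356 higher and 168 lower calls, against 654 and 865 with DESeq2's Wald test, 3059 and 1867 with voom, 1992 and 500 with the block and 183 and 85 without a filter. The healthy sort comparison gave 3910 higher calls over all genes, against 4296 with DESeq2's Wald test and 6199 with voom. It gave 5683 with the block, 2995 in the fit on all 20 libraries and 4512 without the 3 numbers. The EAE sort comparison gave 2793 higher calls of 17982, against 4561 of 17982 with voom and 3787 of 18111 without the 3 numbers. Between EAE and healthy NeuN-negative nuclei, 2650 of 17604 genes were higher, 1877 of 17604 with the block and 3197 of 18333 without the 3 numbers. Voom called 4552 of 17604 lower there, against 2220. In NeuN-positive nuclei 1092 of 16675 were higher, 738 of 16675 with the block and 1417 of 34780 without a filter. There, 1372 of 20444 were higher in the fit on all 20 libraries and 1249 of 17315 without the 3 numbers. The cause of these changes was not tested. Depth limits the low values: the lowest library count was 0 for Spag17, 1 for Spef2, 5 for Dnah11 and 9 for Rsph1.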

Other observations

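Some of the marker genes listed for other cells that touch the cerebrospinal fluid also differed between EAE and healthy mice. Pkd2l1, a channel gene of neurons that contact the cerebrospinal fluid, had 305 ± 91.5 CPM (n = 5) in healthy and 57.8 ± 57.7 in EAE NeuN-negative nuclei (log2 fold change -2.19 ± 0.49, adjusted p = 0.0043 by edgeR's quasi-likelihood test). The list did not move as one: of its 4 markers Pkd2l1 was lower, Myo3b higher and Pkd1l2 and Espn not called, with a median of 1.11 against 0.05 for all genes. Without EAE 2, EAE 4 and healthy 3, Pkd2l1 was lower (-1.74 ± 0.47, adjusted p = 0.0155) and the other 3 higher. In healthy mice Pkd2l1 was lower in NeuN-positive nuclei, at 11.2 ± 5.61 CPM. Of 8 choroid plexus markers 3 were higher in EAE NeuN-negative nuclei, Aqp1, Otx2 and Clic6, and 0 lower. Of all 17604 genes 15.1% were higher and 12.6% lower. The summed level of the 8 was 25.2 to 60.6 CPM in EAE and 11.7 to 27.8 in healthy libraries. The olfactory and vomeronasal receptor level had medians of 0.102 and 0.0112, and its part was not tested. Calls of the 3 without EAE 2, EAE 4 and healthy 3 are not given here. Ttr, the defining gene of that tissue, had 1.94 ± 2.44 CPM in healthy and 1.91 ± 1.58 in EAE nuclei and was not called. These genes were named after their values were seen.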
